A study of Mus musculus with 7 samples.

Results

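The immunoglobulin constant genes encode the part of an antibody that fixes its class, and 10 of them were followed in LSK cells (bone marrow (BM) cells without lineage markers that carry Sca1 and cKit) of transplanted mice. The members were the rows of the deposited expression table with the symbols Ighm, Ighd, Igha, Ighg1, Ighg2b, Ighg2c, Ighg3, Igkc, Iglc1 and Iglc2, 10 of 48440 genes, 7 of them for heavy chains and 3 for light chains. Unfractionated BM, either wild-type (WT) or from donors carrying an endonuclease-mediated constitutive knockout (KO) of PROSER1, an interactor of the TET enzymes of DNA demethylation, was given to lethally irradiated C57BL/6 recipients (9.5 Gy in 2 doses, 3 hours apart). LSK cells were sorted at day 77 without further treatment, and polyadenylated RNA was sequenced in 4 WT libraries and 3 libraries labelled PROSER1 KO. The knockout was present in every donor cell, whereas the recipients were not knockout, and host cells that survived irradiation could contribute to either group.

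An antibody pairs heavy chains with kappa or lambda light chains. A B cell first makes IgM and IgD, and recombination between switch regions can join its variable region to a constant gene further along the locus, which gives IgG, IgE or IgA. Antibody secreting plasma cells of the BM carry these transcripts at very high levels, and IgM and IgA, unlike IgG, are assembled into polymers with the joining chain (Jchain).

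The 8 heavy chain constant genes lie on the reverse strand of chromosome 12 (GRCm38) in the order Ighm (113418558 to 113422730), Ighd (113406604 to 113416324), Ighg3 (113356224 to 113361232), Ighg1 (113325240 to 113330523), Ighg2b (113302965 to 113307933), Ighg2c (113285325 to 113288932), Ighe (113269260 to 113273248, not a member) and Igha (113254830 to 113260236). Igkc lies on the forward strand of chromosome 6 (70726435 to 70726966). Iglc1 (19061618 to 19062071) and Iglc2 (19198396 to 19200351) lie on the reverse strand of chromosome 16, with Iglc3 (19065230 to 19065681) and Iglc4 (19194999 to 19195312) between them. In this annotation (GENCODE M21) Iglc2 shared bases with the joining segment Iglj2, which was listed at 0 in every library. Igkc lies within an intron of Gm30211 on the same strand and Iglc1 within an intron of 2010309G21Rik on the other strand, and neither shares exon bases with that gene.

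The chains that bind Jchain differ from the IgG chains at their very end, and the last 60 coding bases of the secreted forms (GENCODE M21, GRCm38, reverse strand of chromosome 12) are shown for that reason. In the Ighm and Igha transcripts the second to last codon is a cysteine codon, in capitals, which belongs to the secretory tailpiece through which these chains are linked in polymers. No cysteine codon stands there in Ighg1, Ighg2b, Ighg2c or Ighg3, of which Ighg2b and Ighg1 are shown.
Ighm, chr12:113420870-113420929: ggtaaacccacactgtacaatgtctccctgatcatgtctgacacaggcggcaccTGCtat
Igha, chr12:113258771-113258830: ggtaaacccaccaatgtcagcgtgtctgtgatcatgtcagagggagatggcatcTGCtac
Ighg2b, chr12:113306392-113306451: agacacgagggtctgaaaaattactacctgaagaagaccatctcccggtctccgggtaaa
Ighg1, chr12:113328979-113329038: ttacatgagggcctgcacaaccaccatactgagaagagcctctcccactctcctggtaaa

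The lambda genes are shown because they resemble each other so closely that counts of Iglc2 are uncertain. Iglc2 and Iglc3 differed at 11 of their last 300 coding bases (capitals, reverse strand of chromosome 16), with 96.2% identity over the coding sequence and 79 identical bases in a row, so that a read from one can be assigned to the other or discarded. Iglc1 was 73.4% identical to Iglc2. Among the heavy chains Ighg2b and Ighg2c were closest, with 85.6% identity and 78 identical bases in a row, so that their separate counts are also uncertain.
Iglc2, chr16:19198539-19198838: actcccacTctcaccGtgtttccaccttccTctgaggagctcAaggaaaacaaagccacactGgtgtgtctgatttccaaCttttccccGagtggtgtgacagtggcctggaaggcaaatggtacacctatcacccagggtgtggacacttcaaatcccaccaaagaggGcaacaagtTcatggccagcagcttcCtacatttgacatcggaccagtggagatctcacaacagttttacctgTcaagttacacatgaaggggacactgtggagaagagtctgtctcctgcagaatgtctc
Iglc3, chr16:19065368-19065667: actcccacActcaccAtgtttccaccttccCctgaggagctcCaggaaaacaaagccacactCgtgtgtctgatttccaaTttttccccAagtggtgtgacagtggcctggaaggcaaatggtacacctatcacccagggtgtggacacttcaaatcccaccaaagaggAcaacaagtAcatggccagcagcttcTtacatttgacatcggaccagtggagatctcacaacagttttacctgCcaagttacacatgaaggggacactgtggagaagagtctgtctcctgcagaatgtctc

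Each library held 33143619 to 45140743 read pairs on genes, and 3 read pairs, the limit that a count of 0 allows, equalled 2.54 to 3.48 normalised counts (read pairs divided by 1 size factor per library), which covers counting error only. Proser1 mRNA was not lower in the libraries labelled PROSER1 KO, where its normalised count was 2387 ± 67.5 (SD, n = 3) against 2088 ± 55.5 (SD, n = 4) in WT libraries, and whether the alteration lowers the mRNA is not stated in the sources used here. The direction of every difference between groups below therefore rests on the labels. LSK markers were high in every library, with Kit, the cKit receptor, at 25535 to 32357 normalised counts and Ly6a, which encodes Sca1, at 3961 to 6822. Libraries were labelled as biological replicates, but whether each came from a separate recipient is not stated in the sources used here.

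The 10 constant genes made up 3.69% to 8.44% of all read pairs on genes in a sort meant for stem and progenitor cells. The summed share was 6.12% in WT replicate 1, 5.06% in WT replicate 2, 3.69% in WT replicate 3 and 8.44% in WT replicate 4, and 4.97%, 4.09% and 6.19% in PROSER1 KO replicates 1, 2 and 3. Values of single libraries are given in the same order throughout. The counting error was small beside these differences, since the 95% Wilson interval of WT replicate 4, the widest, ran from 8.43% to 8.45%. All 3 libraries labelled PROSER1 KO lay within the range of the WT libraries. Group means were 5.83% ± 2.01 (SD, n = 4) and 5.08% ± 1.06 (SD, n = 3), and the sign of the difference turned when WT replicate 4 was left out (from -0.744 to 0.127 percentage points, PROSER1 KO minus WT). In bulk RNA, fewer cells of a type and less RNA per cell cannot be told apart.

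**Figure D1:**
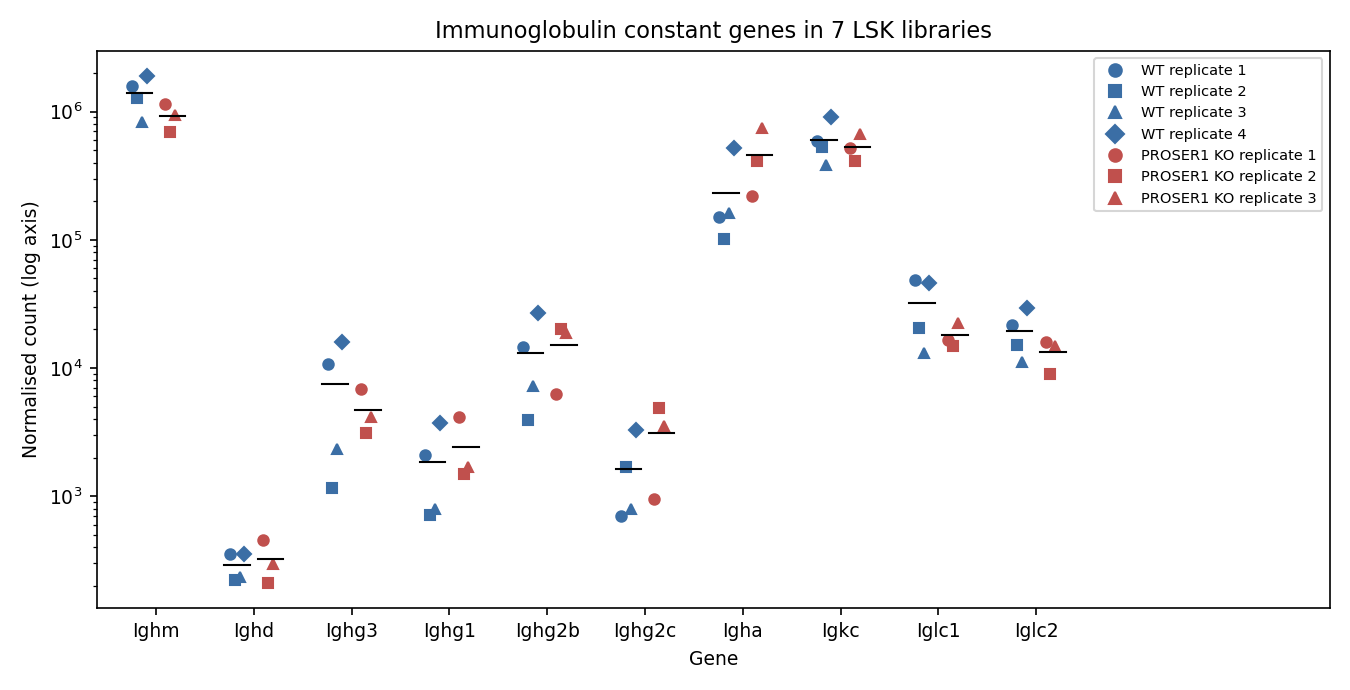
Normalised counts (log axis) of the 10 constant genes in each library, with WT libraries in blue, libraries labelled PROSER1 KO in red, one symbol for each replicate number and a line at the arithmetic mean of the group. The groups overlap for all 10 genes, from Ighd at 212 to 456 up to Ighm at 687394 to 1890105.

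None of the 10 constant genes passed the test of normalised counts between groups, which asked whether loss of PROSER1 went with a change in their level. limma on log2(normalised count + 1) with Benjamini-Hochberg adjustment called 0.258% of the 16251 genes tested (adjusted p under 0.05 and fold change above 1.5) and 0 of the 10 members on the scale of normalised counts, and 0 members had an unadjusted p under 0.05. By quasi-likelihood test of edgeR on recovered read pairs 0 members were called and 1 (Ighm) had an unadjusted p under 0.05, and DESeq2 gave 0 and 0. The groups did not overlap for 10% of all genes tested (1625 of 16251) and for 0 of the members. Fold changes went both ways, with 5 members higher and 5 lower in PROSER1 KO than in WT, and their median log2 fold change was 0.025, against 0.001 for all genes tested. All fold changes are on the log2(normalised count + 1) scale, PROSER1 KO minus WT.

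**Figure D2:**
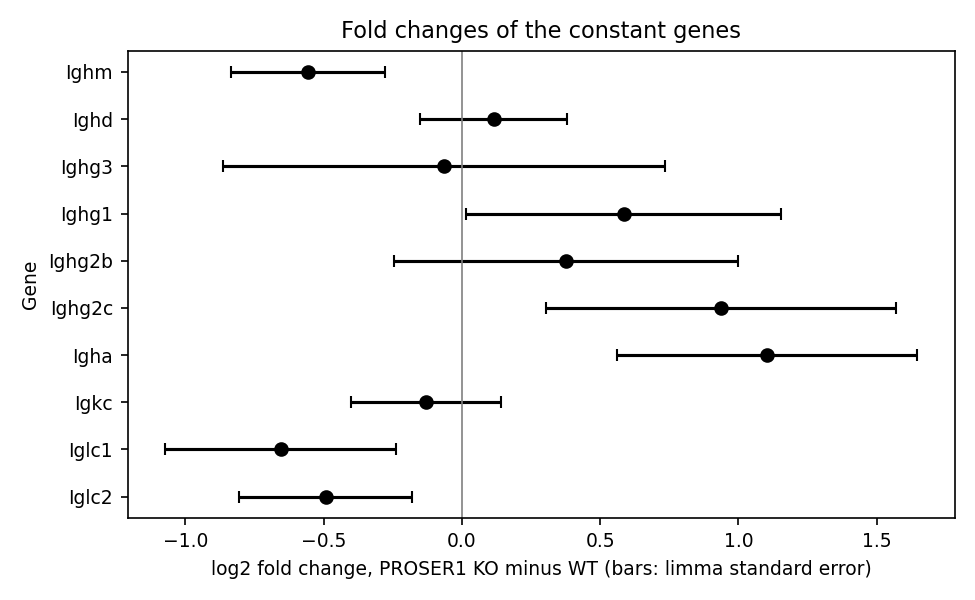
log2 fold change of each constant gene between libraries labelled PROSER1 KO and WT libraries (points), with the standard error of limma as bars. Igha had the highest value (1.10) and Iglc1 the lowest (-0.66), and no gene passed the threshold after adjustment on this scale.

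Ighm encodes the mu chain of IgM, the first class a B cell makes, and it had the highest normalised count of the heavy chain genes in every library. Its normalised counts were 1568036, 1279122, 830464 and 1890105 in the WT libraries and 1137842, 687394 and 947499 in the 3 labelled PROSER1 KO. WT replicate 3 lay below 2 of the 3 libraries labelled PROSER1 KO, and the other WT libraries lay above all 3. The log2 fold change was -0.56 (standard error 0.278, limma adjusted p = 0.554).

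Ighd encodes the delta chain of IgD, which naive B cells make from the same primary transcript as IgM. Its normalised counts were 352, 224, 233 and 351 in WT libraries and 456, 212 and 299 in libraries labelled PROSER1 KO, in replicate order. The highest and the lowest value both belonged to libraries labelled PROSER1 KO, and the log2 fold change was 0.12 (standard error 0.266, limma adjusted p = 0.931). For every 1000000 Ighm counts there were only 175 to 401 Ighd counts. This ratio was 225, 175, 281 and 186 in the WT libraries and 401, 309 and 315 in the 3 labelled PROSER1 KO, so that the groups did not overlap. It was computed after the values had been seen and was not tested, and for scale the groups did not overlap for 10% of single genes.

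Igha encodes the alpha chain of IgA, the class of mucosal secretions, and lies last in the locus. Its normalised counts were 149141, 100887, 161448 and 515047 in the WT libraries and 217504, 407796 and 745391 in the 3 labelled PROSER1 KO. All 3 libraries labelled PROSER1 KO were above WT replicates 1 to 3, but WT replicate 4 exceeded PROSER1 KO replicates 1 and 2. Group means were 231631 ± 190743 (SD, n = 4) and 456897 ± 267347 (SD, n = 3), and the log2 fold change of 1.10 (standard error 0.543, limma adjusted p = 0.548) was the highest among the members. Leaving out 1 library moved the log2 fold change between 0.66 (without PROSER1 KO replicate 3) and 1.59 (without WT replicate 4), with adjusted p from 0.253 to 0.792. Divided by the summed counts of 12 plasma cell markers other than Jchain, a scale added after seeing the data, Igha passed in limma (log2 fold change 1.39, adjusted p = 0.000367). On that scale the median of all genes moved to 0.285, and limma replaced the residual SD of Igha (0.753) by the value of its mean-variance trend (0.372). The groups still overlapped, with a log2 ratio of Igha to these markers of 1.07, 0.77, 1.84 and 2.35 in the WT libraries and 2.00, 3.15 and 3.54 in the 3 labelled PROSER1 KO, and an exact permutation test of the difference gave p = 0.114.

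The IgG genes encode the gamma chains of the main serum antibodies, and each varied several-fold within a group. Ighg2b, the most abundant of the 4, had 14709, 3909, 7190 and 26748 normalised counts in the WT libraries and 6248, 20126 and 18840 in the 3 labelled PROSER1 KO. Ighg2c, the form that C57BL/6 mice carry in place of Ighg2a, had 696, 1701, 794 and 3305 in WT libraries and 950, 4883 and 3545 in libraries labelled PROSER1 KO. The same 2 libraries, PROSER1 KO replicates 2 and 3, were high for both of these genes, together with WT replicate 4.

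Ighg1, a class often induced with help from T cells, had 2101, 718, 801 and 3719 normalised counts in WT libraries and 4147, 1481 and 1697 in libraries labelled PROSER1 KO. Here PROSER1 KO replicate 1 was the highest library, whereas it was the lowest of its group for Ighg2b and Ighg2c. Ighg3, a class made largely against polysaccharides, had 10724, 1163, 2352 and 15865 in WT libraries and 6847, 3086 and 4151 in libraries labelled PROSER1 KO. This was the widest spread of any member, 13.6-fold within the WT group alone. The log2 fold changes were 0.38 for Ighg2b, 0.94 for Ighg2c, 0.58 for Ighg1 and -0.06 for Ighg3, with standard errors of 0.571 to 0.8 and limma adjusted p-values of 0.678 to 0.988.

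Igkc, the only constant gene of kappa light chains, had 588445, 525555, 379411 and 911098 normalised counts in the WT libraries and 518193, 414733 and 664553 in the 3 labelled PROSER1 KO. The libraries labelled PROSER1 KO lay inside the WT range, and the log2 fold change was -0.13 (standard error 0.27, limma adjusted p = 0.923). Without WT replicate 4 or PROSER1 KO replicate 2 its sign turned (0.10 and 0.04).

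The lambda constant genes were lower on average in the libraries labelled PROSER1 KO, without passing the test. Iglc1 had 48375, 20559, 12973 and 46127 normalised counts in WT libraries and 16441, 14786 and 22571 in libraries labelled PROSER1 KO, a log2 fold change of -0.66 (standard error 0.418, limma adjusted p = 0.656). WT replicates 1 and 4 were high and WT replicate 3 was the lowest of all 7. Iglc2 had 21746, 15178, 11088 and 29421 in WT libraries and 16012, 8942 and 14891 in libraries labelled PROSER1 KO, a log2 fold change of -0.49 (standard error 0.313, limma adjusted p = 0.654). Again WT replicates 1 and 4 were above every library labelled PROSER1 KO and WT replicates 2 and 3 were not.

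Iglc3, the near copy of Iglc2, had 10187, 18228, 4077 and 42210 normalised counts in WT libraries and 8595, 4718 and 9344 in libraries labelled PROSER1 KO. The number of Iglc3 counts for 100 Iglc2 counts ran from 36.8 to 144 in WT libraries and from 52.8 to 62.8 in libraries labelled PROSER1 KO. The variable genes of the lambda locus, looked up after the values had been seen, were likewise unequal, with Iglv3 at 7851 in WT replicate 4 and 647 to 1816 in the other 6 libraries. Iglc4 was low, at 21.9 to 58.6. Ighe, of the allergy class IgE, had 1.04 to 15.4 normalised counts and was under the minimum mean of 10 for the test.

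Genes can be ranked only per length, and levels per kb of exon (normalised count divided by the length of the union of annotated exons) were used for this. Igkc stood first at 1129938 ± 421868 (SD, n = 4) in WT libraries and 1000926 ± 235944 (SD, n = 3) in libraries labelled PROSER1 KO, and exceeded Ighm in 7 of 7 libraries. Ighm followed at 738034 ± 238534 and 490056 ± 119895, above Igha in 7 of 7. Igha, at 86818 ± 71493 and 171251 ± 100205, exceeded Iglc1 in only 5 of 7 libraries on this scale. The place of Igha depends on the length used, 2668 bases here against 1100 for its shortest transcript, whereas Iglc1 has 454 either way. Per kb of the shortest transcript Igha would stand higher, and in PROSER1 KO replicate 3 it slightly exceeded Ighm (log2 ratio 0.09).

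Below these, Iglc1 exceeded Iglc2 in 7 of 7 libraries and Iglc2 exceeded Ighg2b in 7 of 7. The neighbours Ighg2b and Ighg3 (6 of 7), Ighg3 and Ighg2c (4 of 7) and Ighg2c and Ighg1 (5 of 7) changed places between libraries. The place of Ighg2c depends on its exon union of 1326 bases, against 2512 to 2678 for the other IgG genes. Per kb of the shortest transcript Ighg2c lay below Ighg1 in WT replicates 1, 3 and 4 and in PROSER1 KO replicate 1. Ighd came last, at 112 to 240 counts per kb, below Ighg1 in 7 of 7. The level per kb thus ran from 1712589 for Igkc in WT replicate 4 to 112 for Ighd in PROSER1 KO replicate 2.

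IgM took a smaller part and IgA a larger part of the heavy chain transcripts on average in the libraries labelled PROSER1 KO, but the groups overlapped and neither share passed an exact test. A share was the level of a gene per kb of exon divided by the sum over the 7 heavy chain members, in which the size factor of the library cancels. The IgA share was 6.22%, 5.26%, 11.97% and 15.9% in the WT libraries and 11.8%, 28.8% and 35.2% in the 3 labelled PROSER1 KO. PROSER1 KO replicates 2 and 3 were above every WT library, and PROSER1 KO replicate 1 lay below WT replicates 3 and 4.

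The mean IgA share was 9.83% ± 5.01 (SD, n = 4) and 25.3% ± 12.1 (SD, n = 3), a difference of 15.4 percentage points. A two-sided exact permutation test over all 35 ways of dividing the libraries into 4 and 3 gave p = 0.0857 (adjusted p = 0.179 over the 5 shares and ratios tested), where 0.0286 is the smallest p that 4 against 3 libraries allow. The IgM share mirrored it, at 92.5%, 94.2%, 87.1% and 82.4% in WT libraries and 87.1%, 68.7% and 63.3% in libraries labelled PROSER1 KO. Its means were 89.1% ± 5.37 (SD, n = 4) and 73.0% ± 12.5 (SD, n = 3), with the same exact permutation p = 0.0857 and adjusted p = 0.179.

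The IgA and IgM shares add up to nearly all of the heavy chain level, so that they are 1 observation seen from both sides. Without division by length the IgA share was 13.2% in WT libraries and 31.8% in libraries labelled PROSER1 KO on average, and per kb of the shortest annotated transcript, a length chosen after seeing the data, 16.9% and 38.03%. The log2 ratio of Igha to Ighm, which needs no total and was also added after seeing the data, differed by 1.66 between the groups, with exact permutation p = 0.143 over the same 35 divisions. PROSER1 KO replicate 1, the library of its group closest to the WT libraries in IgA share, was also the library with the highest Cd3g and Rag1. Cd3g, a T cell receptor chain, had 697 normalised counts there and 20.9 to 52.9 elsewhere, and Rag1, of the recombinase of antigen receptor genes, 2920 there and 686 to 1240 elsewhere. Of the B cell precursor list Vpreb1, Vpreb2 and Igll1 were, like Rag1, highest in PROSER1 KO replicate 1. Rag2, Dntt and Il7r were highest in WT replicate 1 and Vpreb3 in PROSER1 KO replicate 3. Cd4, of the T cell list, was lower in every library labelled PROSER1 KO (170, 113 and 191) than in WT libraries (200 to 287). The other T cell markers, Cd3d, Cd3e, Trbc1, Trbc2, Lck and Cd8a, were like Cd3g highest in PROSER1 KO replicate 1, Lck and Cd8a narrowly. Over the whole T cell list (8 of 8 markers above 0 in that library) the summed count was 2172 to 3105 in WT libraries and 1754 to 4551 in libraries labelled PROSER1 KO, and the part of these cells in the isotype shares was not tested. Leaving out PROSER1 KO replicate 1, the lowest of its group in IgA share, could only widen the difference, which became 22.2 percentage points. The groups then no longer overlapped, and the exact permutation test gave the smallest p that 4 against 2 libraries allow (0.0667). This p followed from the choice of the library left out and adds no support.

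**Figure D3:**
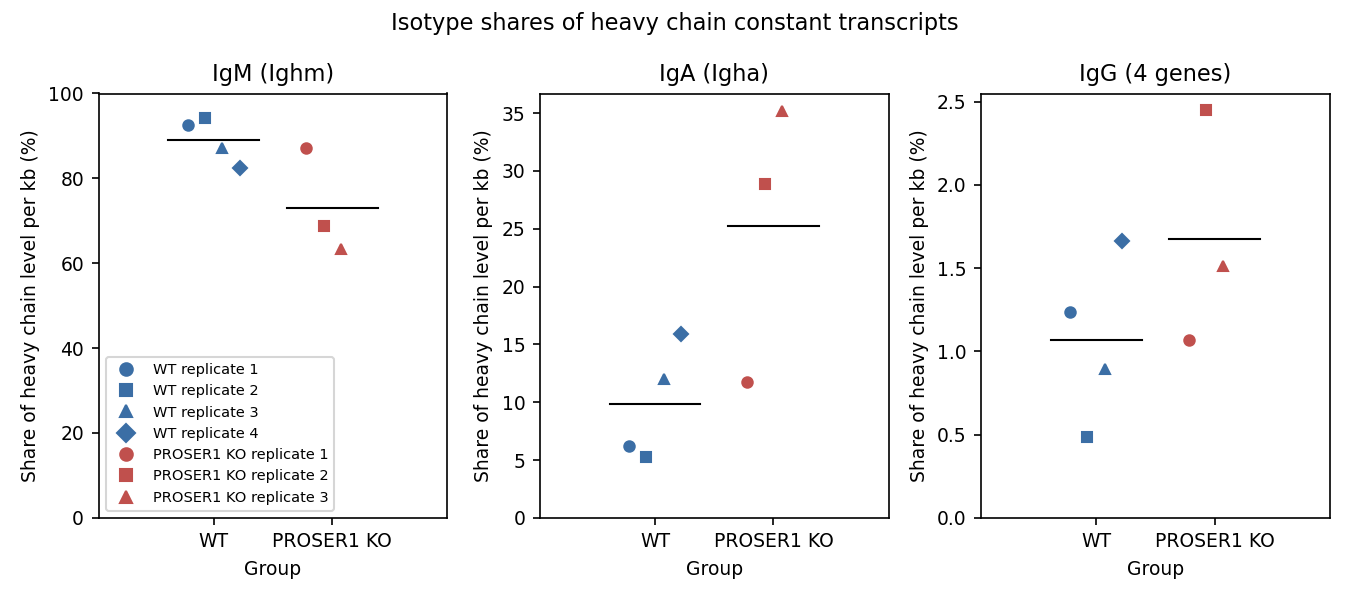
Share of IgM (Ighm), IgA (Igha) and IgG (4 genes) in the summed heavy chain level per kb of exon, in percent, for each library, with a line at the mean of each group and a separate axis from 0 for each class. IgA ranged from 5.26% to 15.9% in WT libraries and from 11.8% to 35.2% in libraries labelled PROSER1 KO.

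The 4 IgG genes together held only 0.484% to 2.45% of the heavy chain level per kb. Their summed share was 1.24%, 0.484%, 0.896% and 1.66% in the WT libraries and 1.06%, 2.45% and 1.51% in the 3 labelled PROSER1 KO. The groups overlapped, and the difference of 0.607 percentage points gave p = 0.257 in the exact permutation test (adjusted p = 0.257). It was 0.219 percentage points without PROSER1 KO replicate 2. Within IgG, Ighg2b took 31.6% to 59.3% of the level per kb and was the highest of the 4 in every library but PROSER1 KO replicate 1, where Ighg3 was. Ighg3 took 38.5% in WT replicate 1 and 37.0% in PROSER1 KO replicate 1, and Ighg2c 36.8% in WT replicate 2 (22.6% per kb of the shortest transcript). Ighg1 took 21.7% in PROSER1 KO replicate 1 and 4.40% to 7.95% in the other 6 libraries. IgD held 0.0152% to 0.0347%.

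The kappa to lambda ratio, Igkc over the sum of Iglc1 and Iglc2 per kb of exon, was higher in every library labelled PROSER1 KO than in any WT library, by a narrow margin. It was 7.79, 14.1, 15.3 and 11.4 in the WT libraries and 15.6, 16.5 and 16.9 in the 3 labelled PROSER1 KO. The gap between the groups, from 15.3 to 15.6, was small beside the spread of the WT libraries. Group means were 12.2 ± 3.32 (SD, n = 4) and 16.3 ± 0.648 (SD, n = 3), which corresponds to 8.05% and 5.77% lambda among the light chains.

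On the log2 scale the ratio differed by 0.47, and the exact permutation test of the difference of means gave p = 0.114 (adjusted p = 0.179), so that it did not pass although the groups did not overlap. WT replicate 1, with the lowest ratio, moved the difference most, to 0.27 when it was left out. When Iglc3 and Iglc4 were counted as lambda the difference was 0.58, but the groups overlapped, since WT replicate 3 (12.8) exceeded PROSER1 KO replicate 1 (11.96). With Iglc1 alone as lambda the groups also overlapped, with WT replicate 3 at 24.96 and PROSER1 KO replicate 2 at 23.9.

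**Figure D4:**
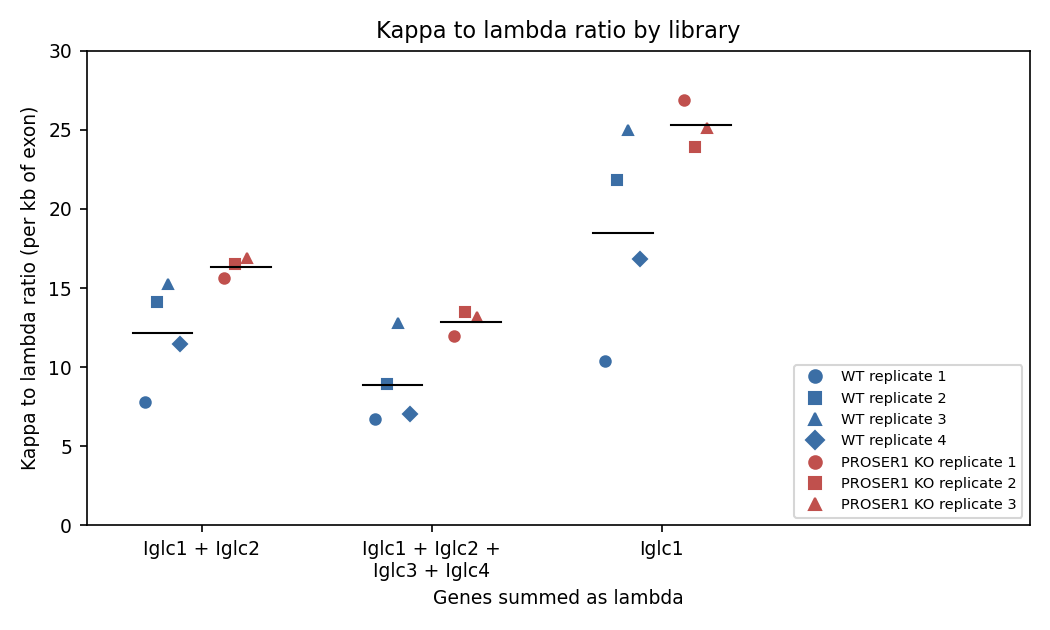
Kappa to lambda ratio per kb of exon in each library, with lambda taken as Iglc1 and Iglc2, as all 4 lambda constant genes, or as Iglc1 alone, and a line at the mean of each group. The groups are apart only in the first definition, where WT replicate 3 (15.3) lies next to PROSER1 KO replicate 1 (15.6).

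The ratio of light to heavy chain transcripts was nearly the same in all 7 libraries, although the summed level of the constant genes differed more than 2-fold between them. Per kb it was 1.39, 1.47, 1.503 and 1.53 in the WT libraries and 1.497, 1.56 and 1.67 in the 3 labelled PROSER1 KO. On the log2 scale it differed by 0.09 (exact permutation p = 0.143, adjusted p = 0.179). The size and the sign depended on the length given to the heavy chain genes, since per kb of the shortest transcript the log2 difference was -0.08, and without division by length it was 0.01, with ratios from 0.377 to 0.408.

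Jchain, which encodes the joining chain of polymeric IgM and IgA, followed the sum of Ighm and Igha, which made up nearly all of the heavy chain level. It had 263799, 217345, 151607 and 384345 normalised counts in the WT libraries and 199467, 179939 and 269328 in the 3 labelled PROSER1 KO. For 1000 counts of Ighm and Igha together there were 154, 157, 153 and 160 Jchain counts in WT libraries and 147, 164 and 159 in libraries labelled PROSER1 KO, a 1.12-fold range. Igkc, a light chain gene, kept to the same sum almost as closely, with 343 to 393 counts for 1000 and a 1.15-fold range. The close range was thus not particular to Jchain. Against Ighm alone the range of Jchain was 1.69-fold, with 168 to 203 in WT libraries and 175 to 284 in libraries labelled PROSER1 KO, and against Igha alone 5.96-fold. These ratios were chosen after the values had been seen and were not tested.

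Across the 7 libraries, as a description, log2 levels of Igkc and Jchain had Pearson r = 0.986 and Spearman rho = 1, and r = 0.943 without the 2 libraries farthest from the median of Igkc. Ighm and Jchain had r = 0.799 (rho 0.75, and r = 0.581 without the 2 farthest), and Igha and Jchain r = 0.45 (rho 0.393, and r = -0.363 without the 2 farthest). Ighm and Igha had r = -0.135 (rho -0.179, and r = -0.454 without the 2 farthest). The points share the library, its size factor and its mixture of cells. Igkc and Jchain thus varied together from library to library, whereas Igha did not follow Ighm.

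**Figure D5:**
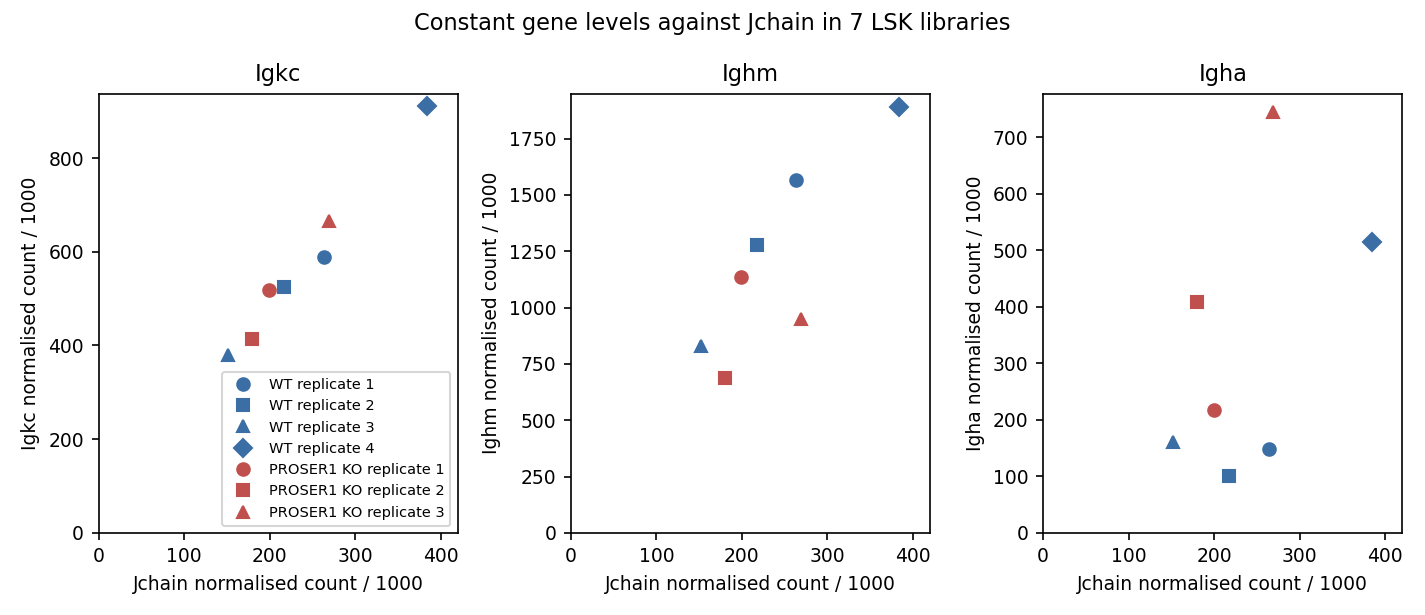
Normalised counts, divided by 1000, of Igkc, Ighm and Igha against Jchain in each of the 7 libraries, WT in blue and PROSER1 KO in red. Igkc follows Jchain closely, PROSER1 KO replicates 2 and 3 lie to the low side for Ighm and to the high side for Igha, and no line was fitted.

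The genes most like each of the 3 main members over the 7 libraries were sought among 11756 genes of mean normalised count of at least 100 that are no antigen receptor genes, by Pearson r of log2 levels and with no test. For Igkc they were Mrs2, a mitochondrial magnesium channel, Fndc3a, Cpeb3, Edem1, of the degradation of misfolded proteins in the endoplasmic reticulum, and Ell2, an elongation factor needed for secretory immunoglobulin transcripts, with r from 0.988 to 0.993. For Ighm they were Pld3, 1110008P14Rik, Ctss, a lysosomal protease, Shisa5 and Epcam, an adhesion molecule, with r from 0.985 to 0.994. For Igha they were Vcam1, an adhesion molecule of stroma and macrophages, Flt4, a receptor for vascular growth factors, Fam222b, Upf2, of nonsense-mediated decay, and 3110001I22Rik, with r from 0.971 to 0.994. The points share the library and its size factor, and no name was common to the 3 lists. The highest of 11756 values of r over only 7 libraries are high by selection alone, and whether these exceed chance was not tested.

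Plasma cell markers were present in every library and, like the constant genes, did not pass the test. Of 13 plasma cell genes 13 were tested and 0 were called in either direction. All 13 had a log2 fold change below 0, with a median of -0.32, and the summed count, mostly Jchain, was 196858 to 485376 in WT libraries and 225982 to 333483 in libraries labelled PROSER1 KO. None of the markers was at 0. Sdc1, the surface proteoglycan CD138, had 2757 to 6121 normalised counts over all libraries, Tnfrsf17, the receptor BCMA, 348 to 862, and Mzb1, a chaperone of IgM, 2489 to 6848. The regulators Xbp1, Irf4 and Prdm1 of antibody secretion had log2 fold changes of -0.18, -0.29 and -0.49 (limma adjusted p = 0.857, 0.816 and 0.647). The median of this list lay below 0 as did that of Igkc, while Igha had a fold change above 0, and the part of plasma cell content in the level of the constant genes was not tested.

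B cell markers were also present and did not pass the test. Of 12 such genes 12 were tested and 0 called (median log2 fold change 0.00), with a summed count of 7183 to 11472 in WT libraries and 7189 to 10230 in libraries labelled PROSER1 KO. The groups did not overlap for 1 of the 12, Fcer2a, against 10% of all genes tested. Fcer2a had 44.8 to 77.7 normalised counts in WT libraries and 20.9 to 30.7 in libraries labelled PROSER1 KO (log2 fold change -1.18, limma adjusted p = 0.204). Ms4a1 (CD20) had 278 to 799 normalised counts over all libraries, and Cd79a, of the B cell receptor, 1006 to 2586. Pax5, the factor that keeps B cell identity, had 303 in PROSER1 KO replicate 1 and 55.6 to 170 elsewhere. Of 8 B cell precursor genes 8 were tested and 0 called (median log2 fold change 0.58), with a summed count of 30978 to 50013 in WT libraries and 32313 to 48017 in libraries labelled PROSER1 KO. The groups did not overlap for 2 of the 8, against 10% of all genes tested, and both, Vpreb2 and Igll1, are surrogate light chain genes. Vpreb2, named after its values were seen, had 19.2 to 27.9 normalised counts in WT libraries and 30.5 to 54.2 in libraries labelled PROSER1 KO (log2 fold change 0.82, limma adjusted p = 0.425). Vpreb1, another of these genes, had 24.3 to 91.8 with overlapping groups, and Igll1 had 6.96 to 21.2 in WT libraries and 30.5 to 70.9 in libraries labelled PROSER1 KO (log2 fold change 1.58, limma adjusted p = 0.288).

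Genes of class switch recombination did not pass the test. Of the list of 20 such genes 18 were tested and 0 called, with a median log2 fold change of -0.01. The groups did not overlap for 2 of the 18, against 10% of all genes tested. Of 13 immunoglobulin receptor genes 11 were tested and 1 was called. The groups did not overlap for 2 of these 11, Fcer2a, given above, and the called gene Fcer1g. Fcer1g, the signalling chain shared by several receptors for IgG and IgE, had 608, 455, 539 and 574 normalised counts in the WT libraries and 336, 251 and 269 in the 3 labelled PROSER1 KO, without overlap. It fell by 0.93 on the log2 scale (limma adjusted p = 0.0277). Fcmr, the receptor for IgM, had 213 to 553 in WT libraries and 146 to 337 in libraries labelled PROSER1 KO (log2 fold change -0.84, limma adjusted p = 0.486).

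In the remaining marker lists 0 genes were called, with 9 of 9 LSK genes tested (median log2 fold change -0.01), 8 of 8 T cell genes (0.08), 8 of 8 myeloid genes (-0.03), 6 of 7 erythroid genes (0.01) and 6 of 6 stromal and endothelial genes (0.27). The groups did not overlap for 1 T cell gene (Cd4), 1 myeloid gene and 0 genes of the LSK, erythroid, and stromal and endothelial lists, against 10% of all genes tested. For the stromal and endothelial list, to which neither Vcam1 nor Flt4 belongs, the summed count was 5081 to 5894 in WT libraries and 5399 to 5929 in libraries labelled PROSER1 KO. This sum was mostly Pecam1, at 4650 to 5523 over all libraries, and so shows little of the other markers. Over all libraries Cxcl12 had 3.61 to 357 normalised counts, Cdh5 33.4 to 258, Lepr 3.61 to 39.4, Col1a1 19.5 to 59.5 and Col1a2 102 to 196. Their part in the level of Igha was not tested.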

How the data were processed

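RNA of sorted LSK cells was sequenced in 4 WT libraries and 3 libraries labelled PROSER1 KO. The authors trimmed reads with Trimmomatic, mapped them to mm10 (GRCm38) with STAR, summarised read pairs over genes by featureCounts and deposited counts divided by 1 DESeq2 size factor per library, a normalised signal without a filter on low values (tool versions not given in the sources used here). The methods name GENCODE release 25 and the file header vM10, and the library kit was directional while the strand setting of the counting is not stated. Whole read pairs could be read back from the step between neighbouring values of a library (100% of values whole within 0.01 read pairs). Columns of other samples left unused numbered 0.

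Groups followed the labels. limma 3.58.1 in R 4.3.3 (lmFit, eBayes with trend) was run on log2(normalised count + 1) for the 16251 genes with a mean of at least 10, with Benjamini-Hochberg adjustment over all of them. edgeR 4.0.16 (quasi-likelihood) and DESeq2 1.42.0 on recovered read pairs, other pseudocounts, filters, variance settings and scalings, and omission of each library were alternatives. Division by plasma cell markers, shortest transcript lengths and the ratio of Igha to Ighm were added after seeing the data. Shares and ratios used exon lengths of GENCODE M21 and two-sided exact permutation tests over 35 divisions of the libraries, adjusted over 5 tests. Sequences and positions are from the same release (GRCm38). The p-values measure the spread between these libraries, which may in part be technical. The procedures were tested on simulated data.

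Genes named were all members, the other constant genes, Jchain, Proser1, a fixed selection of markers, every called gene of the marker lists and the 5 genes most like Ighm, Igha and Igkc. The marker lists (plasma cell, B cell, B cell precursor, class switch recombination, immunoglobulin receptors, LSK, T cell, myeloid, erythroid, stromal and endothelial) were written from general knowledge, and members and lists were chosen with earlier results of these data known. Cd3g and the other T cell markers, Rag2, Dntt, Il7r, Vpreb3, Fcer2a, Fcmr and the lambda variable genes were named after their values were seen. So were the stromal and endothelial markers. Some genes of the lists are not reported here by name.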

Additional observations from a re-analysis of the deposited data

Results flagged for a closer look

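The Igha count of WT replicate 4 stood apart from the other WT libraries. It was 515047 normalised counts against 100887 to 161448 in WT replicates 1 to 3, and the gap to the nearest library made up 0.854 of the range of the group, above Dixon's 95% critical value for 4 samples. Of 16 values tested in this way within the WT group 1 was flagged, and chance flags about 1 in 20 groups. The group of 3 libraries labelled PROSER1 KO was too small for this rule. WT replicate 4 also held the highest summed share of the 10 constant genes (8.44%) and the highest Jchain count (384345). Relative to the summed plasma cell markers other than Jchain its Igha level was the highest of the WT group (log2 ratio 2.35, against 0.77 to 1.84 in WT replicates 1 to 3), a ratio not tested by this rule. Its IgA share (15.9%, against 5.26% to 11.97% in WT replicates 1 to 3) was tested in this way and was not flagged.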

How the results depend on the processing

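The number of genes called by limma was 42 (20 higher, 22 lower), and it was 17 without the mean-variance trend, 80 with robust variance estimates, 165 with DESeq2, 107 on counts divided by 12 plasma cell markers (76 higher, 31 lower, an alternative added after seeing the data) and 23 to 42 when 1 library was left out, lowest without PROSER1 KO replicate 2. The cause of these differences was not tested. In 190 recomputed fold changes of the 10 members 2 passed the threshold, Ighg1 with the replicate block and Igha on the plasma cell marker scale (1.39), and 11, of 4 members, turned in sign. The sign turned for Ighd without PROSER1 KO replicate 1 (-0.17), for Ighg2b without WT replicate 2 (-0.085), for Ighg3 on the plasma cell marker scale (0.22), with the replicate block (0.53), without WT replicate 1 (0.34), without WT replicate 4 (0.53) and without PROSER1 KO replicate 2 (0.20), and for Igkc on the plasma cell marker scale (0.15), with the block (0.10), without WT replicate 4 (0.10) and without PROSER1 KO replicate 2 (0.04), none of them past the threshold. Over all omissions of 1 library the log2 fold changes of these 4 members ran from -0.17 to 0.38 (Ighd), from -0.085 to 0.93 (Ighg2b), from -0.73 to 0.53 (Ighg3) and from -0.33 to 0.10 (Igkc).

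Leaving out 1 library kept the direction of all 5 tested differences. The difference in IgA share stayed between 10.5 and 22.2 percentage points, in IgM share between -23.1 and -11.2, in IgG share between 0.219 and 0.912, in the log2 kappa to lambda ratio between 0.27 and 0.60 and in the log2 light to heavy ratio between 0.05 and 0.13, with exact permutation p from 0.0667 to 0.6. Leaving a library out can give no p under 0.05 with so few libraries, so this says nothing about stability of the tests. The light to heavy difference turned per kb of the shortest transcript (-0.081), because the heavy chain lengths change.

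Same replicate numbers did not pair the libraries, since their deviations from the group means correlated at 0.023, 0.058 and -0.106. With the replicate number as a block limma called 35 genes and 1 member, Ighg1 (log2 fold change 1.04, adjusted p = 0.00171). WT replicate 4 has no partner under this block and does not enter the blocked differences. Without the block and without WT replicate 4 the log2 fold change of Ighg1 was the same, with limma adjusted p = 0.531. Omissions of a library were fitted only without the block and gave Ighg1 adjusted p-values of 0.53 to 0.97. Under the same block the differences were 17.4 percentage points for the IgA share, -18.2 for the IgM share, 0.805 for the IgG share, 0.46 for the log2 kappa to lambda ratio and 0.11 for the log2 light to heavy ratio, with exact permutation p of 0.25 to 0.5 over 8 swaps, of which 0.25 is the smallest possible. TMM scaling and size factors without immunoglobulin genes moved the median of all genes by less than 0.1 on the log2 scale, and division by plasma cell markers moved it to 0.285. Libraries this deep leave counting error far below the spread between libraries, so that the number of libraries limits the comparisons.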
